A study of Mus musculus with 6 samples.

Results

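Connective tissue mast cells are the resident mast cells of skin. Here they are 301 of 18971 quality-filtered CD45-positive cells from mouse skin, within 48101 barcodes deposited for 6 libraries. A cell was counted as one when at least 1% of its unique molecular identifiers (UMIs, 1 per captured RNA molecule) came from 4 granule protease genes, Cpa3, Mcpt4, Cma1 and Tpsb2. It also had fewer than 3 UMIs of the T cell genes Cd3d, Cd3e and Cd3g and fewer than 5 of the macrophage genes C1qa, C1qb and C1qc. The quality filter set minima of 500 UMIs and 300 detected genes per barcode and allowed mitochondrial genes up to 10% of UMIs. The protease, Cd3 and C1q values therefore chose the cells, and they are given below as a description that supports nothing. The wild-type library held 87 mast cells, the library without alopecia 64 and the library with alopecia 150.

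Il2ra encodes the alpha chain of the interleukin-2 receptor, and the study removed an enhancer upstream of that gene (UP_Del). All groups were female adult mice labelled C57/BL6, aged 17 to 18 weeks, with no treatment: wild-type mice, UP_Del mice that showed no hair loss (below, no alopecia) and UP_Del mice that showed it (below, alopecia). Skin without its hypodermis was digested with Liberase and DNase and then trypsin, live CD45-positive and CD45-negative cells were sorted, and each group and sort gave 1 library made with the 10x Genomics 5' HT v2 kit. How many mice stood behind each library is not given in the sources used here. With 1 library per group, cells of a library are not replicates, no difference between groups has a replicate check, and a difference between genotypes cannot be told apart from a difference between libraries. Every interval below is a 95% interval that covers counting error only.

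Mast cells are granulated cells of bone marrow origin that settle in tissue, where the growth factor receptor KIT keeps them alive. Antigen that crosslinks IgE on their high-affinity receptor, or ligands of the receptor MRGPRB2, make them release granules that hold histamine, heparin and proteases, and they also secrete lipid mediators, cytokines and chemokines. In skin the connective tissue type lies in the dermis near vessels, nerves and hair follicles, and it stores chymases, a tryptase and a carboxypeptidase, while the mucosal type of gut stores Mcpt1 and Mcpt2.

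The 3 CD45-positive libraries held 3340 to 9610 barcodes and 20116378 to 50057357 UMIs, and 34 to 87 barcode sequences were shared by each pair of them, though no sequence was shared between mast cells of different libraries. Mast cells were shallow beside the rest. Their median depth was 996 UMIs in wild type, 993.5 in no alopecia and 870 in alopecia, against 4604, 4936.5 and 4214.5 in the other kept cells. Their summed UMIs came to 148659, 94411 and 189031 in the same order. A few deep cells held much of these sums: 13, 7 and 9 mast cells had over 3000 UMIs, and they carried 44.8%, 34.9% and 21.7% of the mast cell UMIs of wild type, no alopecia and alopecia. Values without these cells are given below beside several of the results that they move.

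The cell type was checked with 10 mast cell genes that the rule did not use (Kit, Ms4a2, Fcer1a, Gata2, Hdc, Slc18a2, Mrgprb1, Mrgprb2, Cyp11a1 and Rab27b). At least 3 of the 10 were detected in 78.2%, 75% and 82.7% of the mast cells of wild type, no alopecia and alopecia. Among cells that met the same Cd3 and C1q limits but had under 0.2% protease UMIs, 0.291%, 0.394% and 0.328% did so, although those cells were deeper. Summed over the mast cells the 10 genes stood at 8624, 10020 and 9797 CPM (UMIs scaled to the same total in each library), against 81.3, 82.7 and 78.1 CPM in the other kept cells. The basophil gene Prss34 had no UMI in any mast cell, and Mcpt8 none in wild type and alopecia. The list of 5 basophil genes that these belong to, with Cd200r3, Itga2 and Il4, stood at 579, 837 and 667 CPM in the mast cells against 19.9, 20.4 and 18.4 CPM in the other kept cells. Mcpt1 had none anywhere, and Mcpt2 had 1 UMI, in alopecia. On the 10 mast cell genes, Mcpt1 and Mcpt2 the label connective tissue mast cell held. A list of 9 T cell genes stood at 780.3, 529.6 and 545 CPM in the mast cells and at 2681, 2301 and 2434 CPM in the other cells. For 8 macrophage genes the levels were 33.6, 169 and 116 CPM, and no eosinophil gene had a UMI. Neutrophil genes had no UMI in wild type and no alopecia and 47 in alopecia, all in 1 cell.

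The genes with the largest ratio of mast cells over other kept cells describe the same identity, since the cells were picked by their proteases. Ms4a2, the beta chain of the IgE receptor, was 348 to 577 times higher across the 3 libraries. Next to the rule's own proteases stood Tpsg1 (a membrane tryptase, 304 to 417 times), Cyp11a1 (the enzyme that starts steroid synthesis from cholesterol, 288 to 357 times), Mrgprb2 (287 to 368 times), Mrgprb1 (249 to 349.6 times) and the transcription factor Gata2 (239 to 288 times). Less usual names in this list were Nwd1, a gene of the NACHT and WD repeat family, at 317 to 442 times, and the keratin Krt4, at 232 to 269.8 times with 128, 117 and 116 CPM in wild type, no alopecia and alopecia.

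GATA factors are known to drive mast cell genes, so promoters of 4 genes with high ratios in these cells that hold such a word are shown here, with their GATA words in capitals. The sequences are the 250 bases before the transcription start in RefSeq (build GRCm38.p6), all 4 on the minus strand and printed 5′ to 3′ along the gene. The words searched were GATAA and GATAG directly after an A or a T, on both strands. Cpa3 (chr3:20242182-20242431) has 1 word at -46 from the start, Mcpt4 (chr14:56062311-56062560) has 1 at -103, and Cma1 (chr14:55944676-55944925) has 1 at -79, read on the opposite strand. Ms4a2 (chr19:11623720-11623969) has 3, at -224 and -37 read on the opposite strand and at -11 along the gene.
Cpa3: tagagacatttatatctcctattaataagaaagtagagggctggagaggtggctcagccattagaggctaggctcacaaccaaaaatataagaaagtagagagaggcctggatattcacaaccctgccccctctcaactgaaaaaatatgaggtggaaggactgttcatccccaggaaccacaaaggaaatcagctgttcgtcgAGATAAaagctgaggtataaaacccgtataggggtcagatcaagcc
Mcpt4: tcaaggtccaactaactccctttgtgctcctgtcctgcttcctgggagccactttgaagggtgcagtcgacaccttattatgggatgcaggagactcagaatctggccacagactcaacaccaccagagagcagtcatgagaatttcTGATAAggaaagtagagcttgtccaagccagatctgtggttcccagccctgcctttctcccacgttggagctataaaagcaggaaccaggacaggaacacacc
Cma1: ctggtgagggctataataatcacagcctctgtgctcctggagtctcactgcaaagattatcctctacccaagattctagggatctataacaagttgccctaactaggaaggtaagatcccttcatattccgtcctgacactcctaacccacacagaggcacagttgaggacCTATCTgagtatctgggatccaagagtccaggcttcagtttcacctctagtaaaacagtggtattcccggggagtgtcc
Ms4a2: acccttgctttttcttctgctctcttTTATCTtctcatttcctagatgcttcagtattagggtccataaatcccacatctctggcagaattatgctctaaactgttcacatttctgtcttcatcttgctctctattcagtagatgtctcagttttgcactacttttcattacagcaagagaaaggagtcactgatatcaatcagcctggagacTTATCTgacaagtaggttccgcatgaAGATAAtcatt
At least 1 such word lay in 8718 of 32851 mouse promoters of this length (26.5%). Of 21 symbols from the mast cell lists with a promoter in RefSeq, 13 had one in at least 1 of their promoters. Mitf and Cyp11a1 also have a promoter without the word. The count of symbols is thus not in the same unit as the 26.5%, which counts single promoters. The 8 without one in this window were Kit, Fcer1g, Gata2, Gata1, Cd63, Ltc4s, Hpgds and Cnrip1. A match is a description of letters and not of binding. No sequence in this window was measured here.

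Mast cells made up 1.34% of the kept CD45-positive cells in wild type (87 of 6487, exact interval 1.08 to 1.65%), 1.95% in no alopecia (64 of 3278, 1.51 to 2.49%) and 1.63% in alopecia (150 of 9206, 1.38 to 1.91%). The share in no alopecia was 1.46 times that of wild type (1.04 to 2.03). The share in alopecia was 0.835 times that of no alopecia (0.619 to 1.14) and 1.21 times that of wild type (0.927 to 1.6), both with intervals that include 1. Among cells of at least 1000 UMIs, each thinned to that depth, the alopecia share was 0.878 times that of wild type (0.612 to 1.26). With proteases at 5% or more of UMIs the cells numbered 18, 11 and 55, and the alopecia share was then 2.15 times that of wild type (1.25 to 3.9) and 1.78 times that of no alopecia (0.922 to 3.77). The CD45-negative libraries held 0 of 3354, 0 of 15484 and 0 of 4958 such cells, which allows shares of up to 0.0894%, 0.0194% and 0.0605%.

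The protease share of a mast cell ran from the limit of 1% to 14.5% in wild type, 17% in no alopecia and 19.9% in alopecia. Its median was 2.66% in wild type (quartiles 1.69 and 4.56%), 2.64% in no alopecia (1.59 and 4.29%) and 3.67% in alopecia (1.83 and 6.15%). The 3 distributions overlapped over most of their range, and the upper quartile was highest in alopecia. The cells nearest to the limit had shares of 1.03%, 1.01% and 1.03% inside it and 0.978%, 0.972% and 0.989% outside it. Of cells with 0.5 to 1% protease UMIs, 61.9% of 21, 31.8% of 22 and 48.1% of 27 still carried at least 3 of the 10 other mast cell genes, so some mast cells lie below the limit. Among all other kept cells, 2.69%, 4.17% and 4.85% had any UMI of the 4 genes.

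**Figure D1:**
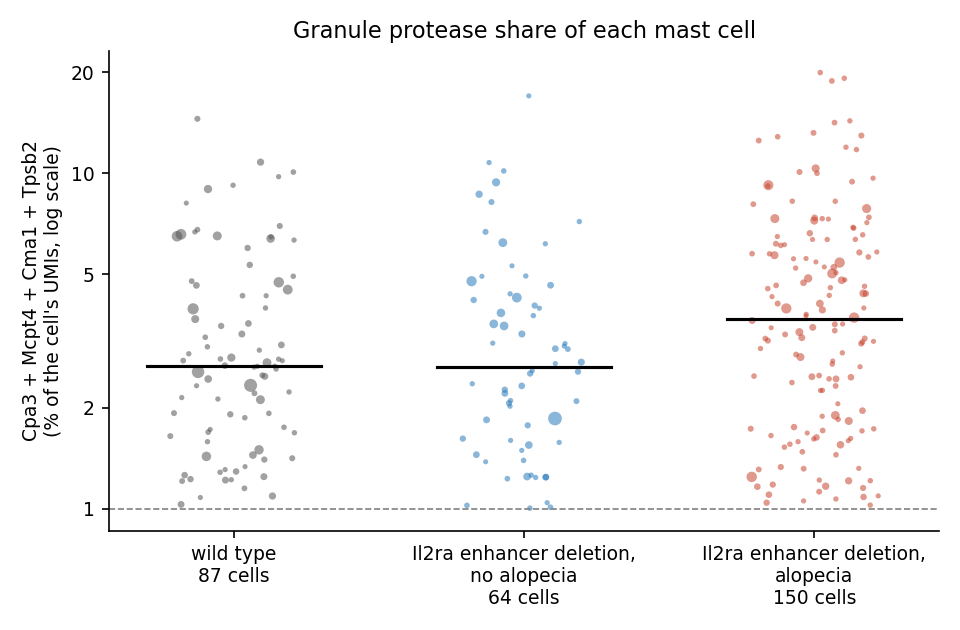
Share of each mast cell's UMIs that came from Cpa3, Mcpt4, Cma1 and Tpsb2 (vertical log axis, percent) in the 3 libraries, with 1 point per cell, point area growing with the cell's UMIs, a black bar at the median and a dashed line at the limit of 1%. The medians are 2.66%, 2.64% and 3.67%, and the alopecia cells reach 19.9%.

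The 4 proteases were detected together in 71.3% of wild-type, 60.9% of no-alopecia and 78.7% of alopecia mast cells. Mcpt4, the chymase that cuts heparin-bound substrates, gave 51.6%, 59% and 51.7% of the protease UMIs and was at 18963, 20887 and 23948 CPM in wild type, no alopecia and alopecia. Cma1, the second chymase, was at 8725, 7499 and 12003 CPM. Cpa3, the carboxypeptidase that trims peptides after the chymases cut, was at 5812, 5328 and 6528 CPM. These 3 genes were highest in the alopecia library, where Cma1 was 1.6 times its no-alopecia level (1.47 to 1.74) and Cpa3 1.23 times (1.1 to 1.36). Tpsb2, the main tryptase of the granule, showed the widest spread of the 4. It had 484 UMIs (3256 CPM) in wild type, 158 (1674 CPM) in no alopecia and 726 (3841 CPM) in alopecia. No alopecia was thus 1.95 times below wild type (1.62 to 2.34) and alopecia 2.29 times above no alopecia (1.93 to 2.74), and in the cells with at most 3000 UMIs the log2 ratio of alopecia over no alopecia was 1.40. Thinned to 500 UMIs per cell, 64.4%, 48.4% and 68% of mast cells had a Tpsb2 UMI (79.3%, 65.6% and 83.3% unthinned), against 0.453%, 0.591% and 0.431% of the other cells (1.08%, 1.28% and 1.2%). The other cells were also lowest in no alopecia, at a far lower level, 13.2, 3.71 and 10.6 CPM. Tpsb2 and its close copy Tpsab1 can share reads, as can members of the Mcpt and Mrgprb families, so each such gene's level is uncertain. Tpsg1, a tryptase the rule did not use, was at 713, 731 and 926 CPM, and none of its 3 ratios reached 1.5. Ctsd, the lysosomal protease cathepsin D, had 34, 12 and 61 UMIs, and alopecia was 2.54 times no alopecia (1.35 to 5.18).

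**Figure D2:**
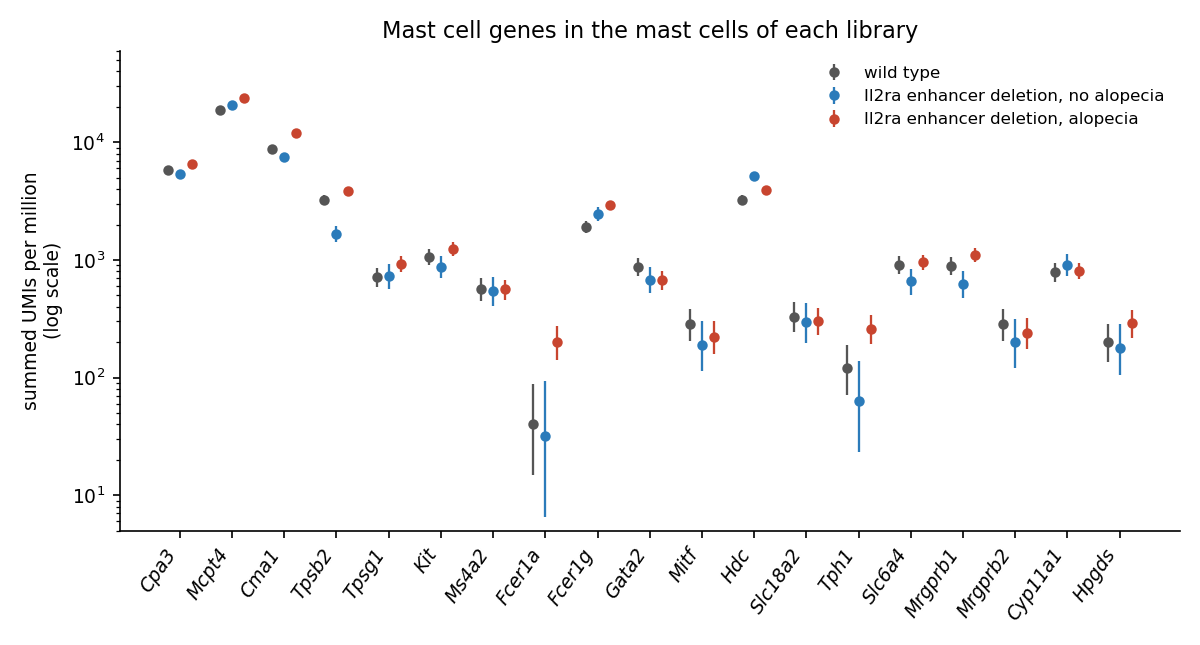
Summed level in CPM (vertical log axis) of 19 mast cell genes in the mast cells of wild type (grey), no alopecia (blue) and alopecia (red), with 95% Poisson intervals that cover counting error only. Ms4a2, Slc18a2 and Cyp11a1 lie close together in the 3 libraries, while Tpsb2 is low in no alopecia (1674) and Fcer1a is high in alopecia (201).

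Gene ratios are ratios of these summed levels, with an exact conditional interval. A gene counts as higher or lower here when the ratio passes 1.5-fold and both libraries together hold at least 20 UMIs of it, so that a count carries no p-value. For alopecia over no alopecia 2311 genes were measured, of which 18.2% were higher and 14.3% lower. For no alopecia over wild type 13.0% of 1961 genes were higher and 19.2% lower, and for alopecia over wild type 15.1% of 2762 were higher and 15.4% lower. These shares are what any list of genes should be read against. Each library enters 2 of the 3 comparisons, so the comparisons share cells and are not independent.

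The mast cell identity list holds 20 genes for growth, receptors, transcription factors and mediators. Most of its members were within 1.5-fold. In alopecia over no alopecia 16 were measured, of which 3 were higher (18.2% of all genes) and 1 lower (14.3% of all genes), with a median log2 ratio of 0.21 against 0.07 over all genes measured. In no alopecia over wild type 2 of 14 were higher (13.0% of all genes) and 0 lower (19.2%), with a median of -0.11 against -0.05. In alopecia over wild type 3 of 17 were higher (15.1% of all genes) and 1 lower (15.4%), with a median of 0.24 against 0.02. Kit had 157, 83 and 234 UMIs, or 1056, 879 and 1238 CPM, in wild type, no alopecia and alopecia. Its alopecia level was 1.41 times that of no alopecia (1.09 to 1.83). Kit was seen in 34.5%, 39.1% and 45.3% of mast cells thinned to 500 UMIs (65.5%, 57.8% and 64.7% unthinned), against 1.47%, 1.65% and 1.48% of the other, deeper cells (9.28%, 9.65% and 8.69%). The transcription factors Gata2 (874, 678 and 672 CPM) and Mitf (283, 191 and 222 CPM), which set the mast cell programme, were both highest in wild type, and the Mitf intervals included 1 in every comparison. Gata1, their partner at lower level, had only 6, 7 and 16 UMIs. Il1rl1, the receptor for interleukin-33, had 15, 2 and 11 UMIs, and 10 of the 15 lay in 1 wild-type cell. Cd63, a tetraspanin of the granule membrane, stood at 713, 688 and 899 CPM, and Rab27b, a small GTPase of granule docking, at 558, 699 and 698 CPM. Cyp11a1 was almost level at 787, 911 and 809 CPM.

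Histamine and serotonin genes differed one by one rather than together. Hdc, which makes histamine from histidine, had 481, 487 and 750 UMIs, or 3236, 5158 and 3968 CPM, in wild type, no alopecia and alopecia. No alopecia was the highest, 1.59 times wild type (1.4 to 1.81), while alopecia was 1.3 times below no alopecia, a difference that shrank to a log2 ratio of -0.04 without the cells over 3000 UMIs. Slc18a2, the transporter that loads histamine into granules, was nearly the same throughout at 329.6, 297 and 302 CPM. Tph1, which makes serotonin, had 18, 6 and 49 UMIs, and alopecia was 4.08 times no alopecia (1.75 to 11.7) and 2.14 times wild type (1.23 to 3.9). Where every cell weighed alike, the Tph1 log2 ratio of alopecia over no alopecia was 0.97 in place of 2.03. Slc6a4, which takes serotonin up again, followed the same order at 908, 657 and 952 CPM. Maob, which degrades amines, was highest in no alopecia (161, 339 and 190.4 CPM), 2.1 times wild type (1.2 to 3.72). Of the 5 list members measured, 1 was higher and 1 lower in alopecia over no alopecia (18.2% and 14.3% of all genes, median 0.02). Of the same 5, 2 were higher and 1 lower in no alopecia over wild type (13.0% and 19.2% of all genes, median -0.15).

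The high-affinity IgE receptor has an alpha chain that binds IgE (Fcer1a), a beta chain that amplifies the signal (Ms4a2) and a shared gamma chain (Fcer1g). The 3 chains did not move together. Ms4a2 had 84, 51 and 106 UMIs, or 565, 540.2 and 561 CPM, and alopecia was 1.04 times no alopecia (0.737 to 1.48). Fcer1g was at 1917, 2457 and 2931 CPM, and alopecia was 1.53 times wild type (1.32 to 1.77). Fcer1a had 6 UMIs in 4 wild-type cells, 3 in 2 no-alopecia cells and 38 in 15 alopecia cells. That made alopecia 6.33 times no alopecia (2.01 to 32) and 4.98 times wild type (2.09 to 14.4). The alopecia cell with most Fcer1a held 10 of the 38 UMIs, and without the top cell of each library the log2 ratio over wild type was 2.43. In cells with at most 3000 UMIs the Fcer1a log2 ratio of alopecia over no alopecia was 3.94 in place of 2.66. Few genes passed 1.5-fold in a list of 21 that holds these 3 chains and genes downstream of them. In alopecia over no alopecia 16 were measured, with 1 higher, Fcer1a, and 2 lower (18.2% and 14.3% of all genes, median 0.16). In no alopecia over wild type 1 of 14 was higher and 2 lower (13.0% and 19.2% of all genes, median -0.07). In alopecia over wild type 2 of 18 were higher, Fcer1a and Fcer1g, and 2 lower (15.1% and 15.4% of all genes, median -0.00). The protein kinase C gene Prkcb was at 632, 561 and 704 CPM, and the inhibitory phosphatase gene Inpp5d, which encodes SHIP-1, at 431, 349.5 and 418 CPM.

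Mrgprb2, the receptor through which basic secretagogues degranulate mast cells without IgE, had 42, 19 and 45 UMIs (283, 201 and 238 CPM), and each of its intervals included 1. Its neighbour Mrgprb1 was better counted, at 895, 625 and 1111 CPM, and alopecia was 1.78 times no alopecia (1.33 to 2.42). In the cells with at least 5% protease UMIs the Mrgprb1 log2 ratio was 0.22 in place of 0.83.

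Cytokine receptor genes went both ways. Of 29 listed, 15 were measured in alopecia over no alopecia, 4 higher and 2 lower (18.2% and 14.3% of all genes, median -0.00). No alopecia over wild type had 2 of 15 higher and 5 lower (13.0% and 19.2% of all genes, median -0.11). In alopecia over wild type 3 of 20 were higher and 3 lower (15.1% and 15.4% of all genes, median -0.07). Il7r, the receptor chain for interleukin-7 and TSLP, had 40, 13 and 72 UMIs (269, 138 and 381 CPM), and alopecia was 2.77 times no alopecia (1.52 to 5.44), a log2 ratio of 1.47 that was 2.12 in cells with at most 3000 UMIs. In the other kept cells that log2 ratio was 0.30 and the alopecia level of Il7r 477 CPM. The part of free RNA from other cells in the Il7r values was not tested. Il10ra, a chain of the interleukin-10 receptor, was at 168, 74.1 and 227 CPM, and alopecia was 3.07 times no alopecia (1.37 to 8.08). For both genes the no-alopecia library was the low one. Its partner chain Il10rb had 10, 19 and 37 UMIs (67.3, 201 and 196 CPM), and was 2.99 times wild type in no alopecia (1.32 to 7.2) and 2.91 times wild type in alopecia (1.42 to 6.56). Ifnar2, a chain of the type I interferon receptor, was likewise lowest in wild type at 357, 583 and 624 CPM, with alopecia 1.75 times wild type (1.26 to 2.47). In the other kept cells Ifnar2 stood at 88.3, 139 and 132 CPM, also lowest in wild type. Il18r1, the interleukin-18 receptor, had 24, 0 and 15 UMIs. With 3 counts put in for the 0, no alopecia was 5.08-fold lower than wild type. Csf2rb, the common beta chain for interleukin-3, was nearly even at 478, 508 and 476 CPM.

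The gene whose enhancer was deleted was scarce in these cells. Il2ra had 8, 1 and 9 UMIs in the mast cells of wild type, no alopecia and alopecia (53.8, 10.6 and 47.6 CPM), against 242, 151 and 134 CPM in the other kept cells. At this depth no difference in mast cell Il2ra between wild type and alopecia was detectable, and the part of free RNA from other cells was not tested. Il2rb, the beta chain, had 16, 14 and 20 UMIs, and Il2rg, the gamma chain shared with other cytokine receptors, was at 276, 244 and 153 CPM, with alopecia 1.8 times below wild type (1.09 to 3). Jak1, the kinase bound to such receptors, was at 491, 297 and 238 CPM, with alopecia 2.06 times below wild type (1.4 to 3.06). Socs1, a feedback inhibitor of the pathway, had 31, 7 and 20 UMIs, and was highest in wild type. Of 20 genes of the interleukin-2 and JAK-STAT list, 12 were measured in alopecia over wild type. Of these 0 were higher and 3 lower (15.1% and 15.4% of all genes), with a median of -0.08 against 0.02 over all genes. In the other kept cells the median of the same genes was -0.35. The whole list stood at 2792, 2341 and 2238 CPM in the mast cells and at 4806, 4309 and 3794 CPM in the other kept cells. The part of free RNA from other cells in the values of this list was not tested. In no alopecia over wild type 1 of 10 was higher and 4 lower (13.0% and 19.2% of all genes, median -0.05). In alopecia over no alopecia 1 of 10 was higher and 2 lower (18.2% and 14.3% of all genes, median -0.20).

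The type 2 cytokine genes Il4 and Il13 were detected in the mast cells of each library. Il4 had 51, 44 and 73 UMIs (343, 466 and 386 CPM), against 4.95, 2.66 and 4.66 CPM in the other cells, though 19 of the 44 UMIs in no alopecia lay in 1 cell. Il13 was at 182, 212 and 222 CPM. Each interval of these genes included 1. Il6 had only 1, 3 and 7 UMIs. Tnf was highest in wild type (424, 307 and 275 CPM), with alopecia 1.54 times below it (1.05 to 2.27). Osm, a cytokine of the interleukin-6 family, was lowest in alopecia (464, 487 and 296 CPM), 1.57 times below wild type (1.09 to 2.27), and its log2 ratio of -0.65 was -1.27 in cells with at most 3000 UMIs. Csf1, the macrophage growth factor (309, 614 and 370.3 CPM), and Tgfb1 (357, 709.7 and 487 CPM) were highest in no alopecia, both 1.99 times wild type, and 21 of the 58 Csf1 UMIs there lay in 1 cell. In cells with at most 3000 UMIs the Csf1 log2 ratio of no alopecia over wild type was 0.25 in place of 0.99. Of 22 genes listed 9 were measured in each comparison. In alopecia over wild type 0 were higher and 3 lower (15.1% and 15.4% of all genes, median 0.17). In alopecia over no alopecia 1 was higher and 3 lower (18.2% and 14.3% of all genes, median -0.27). In no alopecia over wild type 3 were higher and 2 lower (13.0% and 19.2% of all genes, median 0.22).

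Ccl7 and Ccl2 were both higher in alopecia than in wild type. Ccl7, a monocyte attractant, had 324 UMIs (2179 CPM) in wild type, 475 (5031 CPM) in no alopecia and 1314 (6951 CPM) in alopecia. It was 2.31 times wild type in no alopecia (2 to 2.67), 3.19 times wild type in alopecia (2.82 to 3.61) and 1.38 times higher in alopecia than in no alopecia (1.24 to 1.54). The other kept cells went the other way at a low level, 78.7, 73.2 and 48.6 CPM. After thinning to 500 UMIs, 31%, 35.9% and 50.7% of mast cells had a Ccl7 UMI (43.7%, 45.3% and 55.3% unthinned), against 2.55%, 4.39% and 2% of the other cells (6.62%, 9.93% and 5.31%). The no-alopecia sum rested on few cells. Its top 5 cells held 66.7% of the Ccl7 UMIs, against 47.5% in wild type and 38.9% in alopecia, and with cells of at most 3000 UMIs the log2 ratio of no alopecia over wild type was 0.55 in place of 1.21, that of alopecia over wild type 1.31 in place of 1.67. Ccl2, encoded beside Ccl7 and sharing its receptor, had 157, 92 and 367 UMIs (1056, 974 and 1941 CPM). It was 1.84 times wild type (1.52 to 2.23) and 1.99 times no alopecia (1.58 to 2.53) in alopecia, and the interval of no alopecia over wild type included 1. Both chemokines were seen in 27 of 87 wild-type, 18 of 64 no-alopecia and 53 of 150 alopecia mast cells.

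Other chemokines were scarce or rested on 1 cell. Ccl5 had 35, 99 and 25 UMIs, but 85 of the 99 in no alopecia lay in 1 cell, and without the top cell of each library the log2 ratio of no alopecia over wild type was -0.20 in place of 2.16. Cxcl2, a neutrophil attractant, had 16, 1 and 42 UMIs, of which 19 of the 42 lay in 1 cell. Ccl6 had 3, 0 and 17 UMIs, and Cxcl10, an interferon-induced T cell attractant, had 0, 0 and 2, so mast cells of the alopecia library carried almost none of it. Of 16 listed chemokines 5 were measured in alopecia over wild type, with 4 higher and 1 lower (15.1% and 15.4% of all genes). Their median was 1.05, against -0.43 for the same genes in the other kept cells and 0.02 over all genes in mast cells. The value of 1.05 was the log2 ratio of Cxcl2 itself, which was 0.71 without the top cell of each library. The list median was 0.92 over 4 measured genes in cells with at most 3000 UMIs. In no alopecia over wild type 2 of 3 were higher and 0 lower (13.0% and 19.2% of all genes). The median there was 1.21, and -0.06 in cells with at most 3000 UMIs. In alopecia over no alopecia 2 of 5 were higher and 1 lower (18.2% and 14.3% of all genes, median 0.47).

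**Figure D3:**
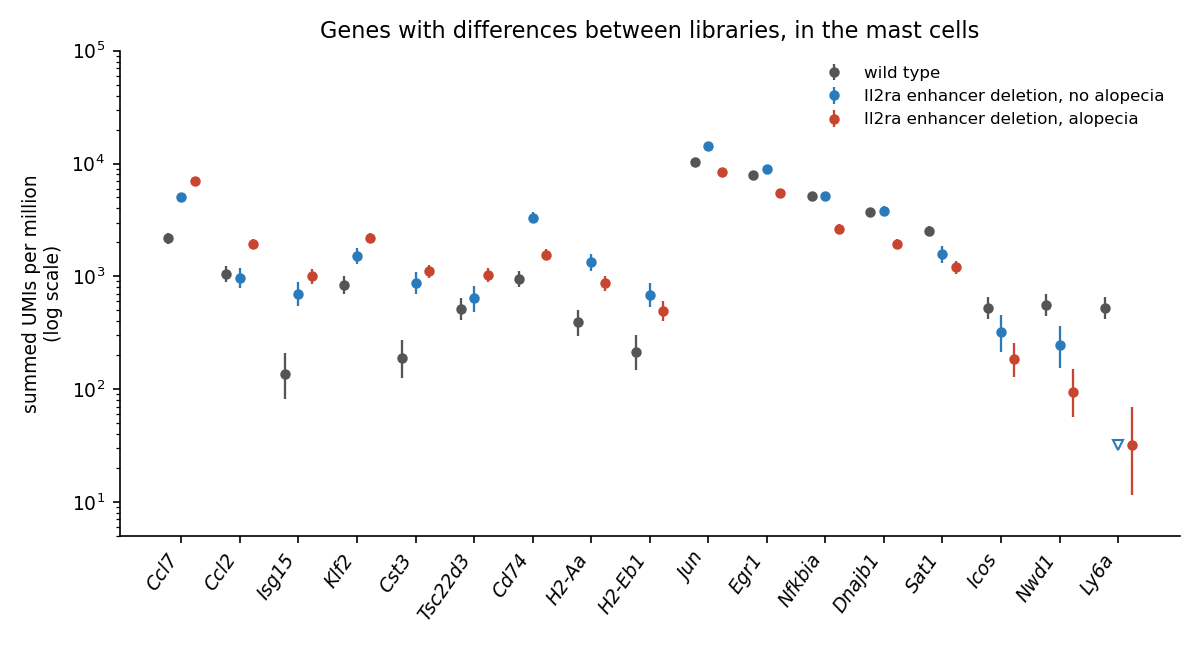
Summed level in CPM (vertical log axis) of 17 genes in the mast cells of the 3 libraries, with 95% Poisson intervals for counting error only; the open triangle marks 3 counts for a library with 0 UMIs. Ccl7, Isg15, Klf2 and Cst3 are lowest in wild type, Cd74 is highest in no alopecia (3305), and Nwd1 is lowest in alopecia (95.2).

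Few interferon-induced genes had enough UMIs in mast cells to be measured. Only 3 of 24 type I interferon response genes reached 20 UMIs in alopecia over wild type. All 3 were higher there (15.1% of all genes, median 1.18), as was the 1 gene measured in no alopecia over wild type (13.0% of all genes). In alopecia over no alopecia 0 of 3 were higher or lower (18.2% and 14.3% of all genes, median 0.38). Isg15, a ubiquitin-like protein, had 20 UMIs in 12 wild-type cells, 66 in 14 no-alopecia cells and 189 in 33 alopecia cells. Its level was 135, 699 and 1000 CPM, or 5.2 times wild type in no alopecia (3.11 to 9.05) and 7.43 times in alopecia (4.68 to 12.4). The other kept cells showed the opposite order, 70.1, 50.7 and 36.4 CPM. After thinning, 8.05%, 14.1% and 17.3% of mast cells had an Isg15 UMI (13.8%, 21.9% and 22% unthinned), against 3.36%, 2.71% and 1.92% of the other cells (20.2%, 16.8% and 11.7%). Again few cells held most of it, since the top 5 cells carried 60%, 80.3% and 63.5% of the Isg15 UMIs. The log2 ratio of alopecia over wild type was 2.89 over all mast cells, 2.73 without the top cell of each library and 2.59 in cells with at most 3000 UMIs. Bst2, the antiviral protein tetherin, had 9, 10 and 26 UMIs, and 7, 8 and 14 without the top cell of each library. The list median of 1.18 was the Bst2 log2 ratio of alopecia over wild type. That ratio was 0.60 without those cells and 0.37, short of 1.5-fold, in cells with at most 3000 UMIs. Irf1, an interferon-gamma target, ran the other way with 29, 4 and 13 UMIs, and alopecia was 2.84 times below wild type (1.43 to 5.94).

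MHC class I genes were mixed. B2m, the light chain of class I, was at 1857, 1938 and 2132 CPM, and H2-K1 at 1251, 1218 and 995 CPM. Of 18 genes 11 were measured in alopecia over wild type, with 2 higher and 4 lower (15.1% and 15.4% of all genes, median -0.24). The 10 measured in alopecia over no alopecia held 0 higher and 3 lower (18.2% and 14.3% of all genes, median -0.32). No alopecia over wild type had 2 of 11 higher and 2 lower (13.0% and 19.2% of all genes, median 0.07). MHC class II genes, which mast cells carry little of, were lowest in wild type. Cd74, the invariant chain, had 141, 312 and 294 UMIs (948, 3305 and 1555 CPM), and no alopecia was 3.48 times wild type (2.85 to 4.28), while alopecia was 2.12 times below no alopecia (1.81 to 2.5). H2-Aa was at 390.2, 1335 and 868 CPM and H2-Eb1 at 215, 688 and 497 CPM. Of 12 class II genes, 4 of 4 measured were higher in no alopecia over wild type (13.0% of all genes, median 1.73). In alopecia over wild type 5 of 5 were higher (15.1% of all genes, median 1.15). In alopecia over no alopecia 0 of 5 were higher and 2 lower (18.2% and 14.3% of all genes, median -0.49). These UMIs lay in few cells. The 7, 15 and 15 mast cells with at least 5 Cd74 UMIs held 84.4%, 96.8% and 87.4% of all of them. Their median protease share was 1.26%, 1.39% and 1.33%, against 2.76%, 3.11% and 3.96% in the remaining mast cells, and they had a median of 3 of the 10 mast cell markers against 5. In the other kept cells Cd74 was at 4748, 7235 and 7451 CPM. The list of 8 dendritic or Langerhans cell genes, H2-Ab1 among them, was also lowest in wild-type mast cells, at 397, 911 and 566 CPM with 59, 86 and 107 UMIs. In cells with 0 UMIs of the Cd3 and C1q genes the class II median of alopecia over wild type was 0.12 in place of 1.15. The part of dendritic cell RNA in this result was not tested.

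Immediate early and heat shock genes, which digestion of tissue is known to switch on, took 77029, 86748 and 68005 CPM of the mast cell UMIs in wild type, no alopecia and alopecia. Of 32 such genes 31 were measured. In alopecia over no alopecia 1 was higher and 10 were lower (18.2% and 14.3% of all genes). The median was -0.37, against 0.07 over all genes and 0.12 for the same genes in the other kept cells. In alopecia over wild type 2 were higher and 5 lower (15.1% and 15.4% of all genes, median -0.36). The counts were 4 and 3 in no alopecia over wild type (13.0% and 19.2% of all genes, median -0.03). The alopecia over no alopecia median was -0.19 in cells with at most 3000 UMIs and 0.08 in cells with at least 5% protease UMIs. Jun was at 10279, 14299 and 8380 CPM, and alopecia was 1.71 times below no alopecia (1.59 to 1.84), but 292 of its 1350 no-alopecia UMIs lay in 1 cell. Egr1, an early growth response factor, was at 7958, 8897 and 5523 CPM, and alopecia was 1.61 times below no alopecia (1.47 to 1.77). Fos differed little, at 8139, 6715 and 7099 CPM. Dnajb1, a co-chaperone of HSP70, was at 3747, 3813 and 1947 CPM, so alopecia was 1.96 times below no alopecia (1.69 to 2.27) while the other kept cells were level at 246, 239 and 252 CPM. Nfkbia, the inhibitor of NF-kappaB that the factor itself induces, showed the same pattern at 5133, 5169 and 2645 CPM, with alopecia 1.95 times below no alopecia (1.72 to 2.22). In cells with at most 3000 UMIs the log2 ratio of Jun was -0.34 in place of -0.77. Nr4a2, an orphan nuclear receptor, was at 451, 1419 and 677 CPM and was highest in no alopecia, but in cells with at most 3000 UMIs its log2 ratio over wild type was 0.39 in no alopecia and -0.19 in alopecia. Klf2 was 1 of the 2 genes of the list that were higher in alopecia than in wild type, beside Nr4a2. It had 125, 144 and 414 UMIs (841, 1525 and 2190 CPM), 2.6 times wild type in alopecia (2.13 to 3.21), and the other cells stood at 219, 167 and 227 CPM.

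Glucocorticoid response genes were mixed. Of 17 genes 13 were measured in alopecia over wild type, with 2 higher and 2 lower (15.1% and 15.4% of all genes, median 0.17). In alopecia over no alopecia 3 of 10 were higher and 1 lower (18.2% and 14.3% of all genes, median 0.40). In no alopecia over wild type 2 of 10 were higher and 3 lower (13.0% and 19.2% of all genes, median -0.16). Tsc22d3, which encodes the glucocorticoid-induced leucine zipper, was at 518, 636 and 1021 CPM, with alopecia 1.97 times wild type (1.51 to 2.6), and in the other cells it stood in the same order, 341, 359 and 514 CPM. Nr3c1, the glucocorticoid receptor itself, had 65, 30 and 42 UMIs (437, 318 and 222 CPM), with alopecia 1.97 times below wild type (1.31 to 2.97).

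Beyond the lists, single genes were taken by the size of the interval bound nearest to 1. In alopecia over no alopecia the genes higher in alopecia included Tph1, Ccl2 and Il7r, and Tpsb2 and Cma1, whose UMIs helped choose the cells. Others were the uncoupling protein gene Ucp2 (767, 593 and 1185 CPM, 2 times, 1.48 to 2.73) and Pdxk (188, 84.7 and 269.8 CPM, 3.18 times, 1.5 to 7.77). Pdxk makes the active form of vitamin B6, the cofactor of histidine decarboxylase. Tmem50a was at 336, 191 and 481 CPM, and Ccdc12 at 182, 74.1 and 243 CPM. For Pdxk and Ccdc12 the wild-type level lay nearer to alopecia than to no alopecia. Genes lower in alopecia were Cd74, Nfkbia, Dnajb1 and Nr4a2, described above, and a few others. All 53 Fscn1 UMIs of no alopecia and 27 of the 41 Lsp1 UMIs there lay in 1 cell, as did 171 of the 292 Cdk8 UMIs, and Ccl5 is given above. AY036118 (1514, 2722 and 1323 CPM) was highest in no alopecia, as in the other kept cells, where it stood at 5173, 6650 and 4843 CPM.

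Several genes separated wild-type mast cells from both enhancer-deletion libraries. Ly6a, the surface protein Sca-1, had 78 UMIs in 28 of 87 wild-type mast cells, none in no alopecia and 6 UMIs in 2 alopecia cells. With 3 counts put in for its 0, no alopecia was 16.5 times below wild type, with a lower interval bound of 13.1. Alopecia was also 16.5 times below wild type (7.26 to 46.4). In the other kept cells Ly6a was at 152, 121 and 45.9 CPM. Its family member Ly6e was at 424, 148 and 254 CPM in mast cells and at 1216, 127 and 130.4 CPM in the other cells. Nwd1 had 83, 23 and 18 UMIs (558, 244 and 95.2 CPM), and alopecia was 5.86 times below wild type (3.49 to 10.4). The Nwd1 log2 ratio was -2.55 over all mast cells, -2.77 without the top cell of each library and -2.81 in cells with at most 3000 UMIs. Sat1, the enzyme that acetylates spermidine and spermine, was at 2523, 1568 and 1201 CPM, with alopecia 2.1 times below wild type (1.78 to 2.49) and the other cells at 249, 253 and 286 CPM. Itpkb, an inositol trisphosphate kinase, was at 283, 95.3 and 84.6 CPM in mast cells, against 521 CPM in the other kept cells of wild type. Its log2 ratio of alopecia over wild type was -1.74 in mast cells and -0.57 in the other kept cells. Icos, a costimulatory receptor of T cells, was at 525, 318 and 185 CPM with alopecia 2.83 times below wild type (1.88 to 4.35), but it stood at 758, 609 and 494 CPM in the other kept cells. The list of T cell genes was also highest in wild-type mast cells, and the part of T cell RNA in the Icos and Itpkb values was not tested. Gas5, a non-coding RNA that hosts small nucleolar RNAs, was at 659, 254 and 381 CPM and Brd2, a bromodomain protein, at 484, 201 and 317 CPM, both lowest in no alopecia.

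Cst3, Lyz2 and Srp14 were on the other side, higher in alopecia than in wild type. Cst3, the protease inhibitor cystatin C, had 28, 83 and 209 UMIs (188, 879 and 1106 CPM), 5.87 times wild type in alopecia (3.95 to 9.05) and 4.67 times in no alopecia (3.01 to 7.44). One alopecia cell held 72 of the 209, and without the top cells the log2 ratio of alopecia over wild type was 2.16 in place of 2.55. Cst3 was more abundant in the other kept cells, at 1211, 1368 and 1777 CPM. Lyz2, the lysozyme of myeloid cells, had a like profile at 108, 191 and 376 CPM, against 542, 766 and 1211 CPM in the other cells. Srp14, a subunit of the signal recognition particle, was at 87.4, 180.1 and 339 CPM, 3.87 times wild type in alopecia (2.11 to 7.66), against 117, 108 and 134 CPM in the other cells. For Cst3 and Lyz2 the part of free RNA from other cells was not tested.

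**Figure D4:**
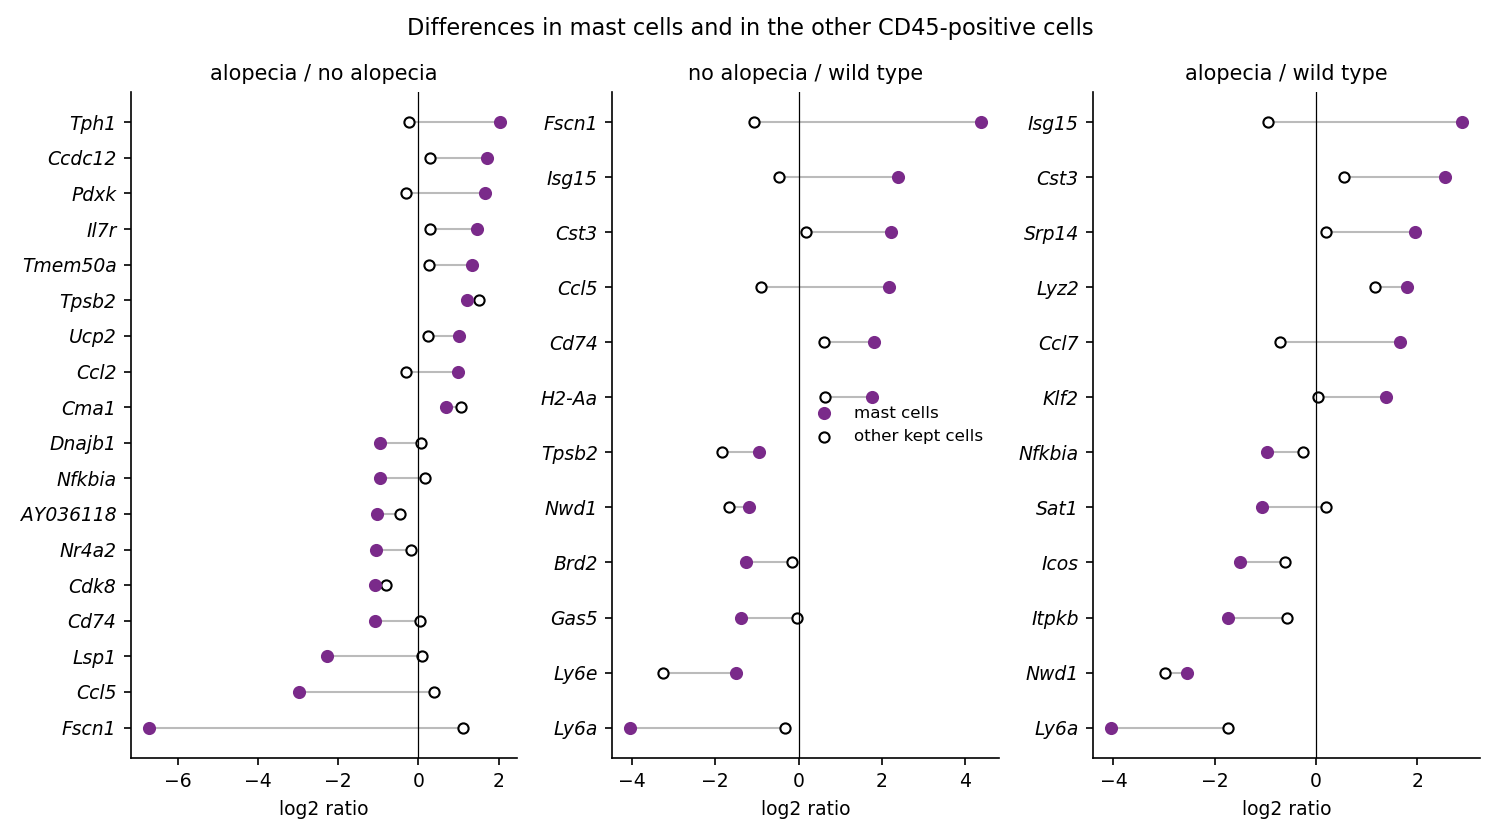
Log2 ratios (horizontal axes) of the genes named for each of the 3 comparisons, in mast cells (filled points) and in the other kept cells of the same libraries (open points), with a library at 0 UMIs set to 3 counts. Isg15 and Ccl7 are above 0 in mast cells and below 0 in the other cells for alopecia over wild type, while Nwd1 lies below 0 in both.

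The weight of the deepest cells differed by gene. Of the genes drawn for both comparisons, Ccl2, Isg15, Klf2 and Nwd1 kept their direction without the cells over 3000 UMIs and without the top cell of each library. Tpsb2, whose UMIs helped choose the cells, kept its direction too. Nr4a2 did not, since its log2 ratio of alopecia over wild type was 0.59 over all mast cells and -0.19 in cells with at most 3000 UMIs, and neither did Cst3 in alopecia over no alopecia, at 0.33 and, without the top cells, -0.14.

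**Figure D5:**
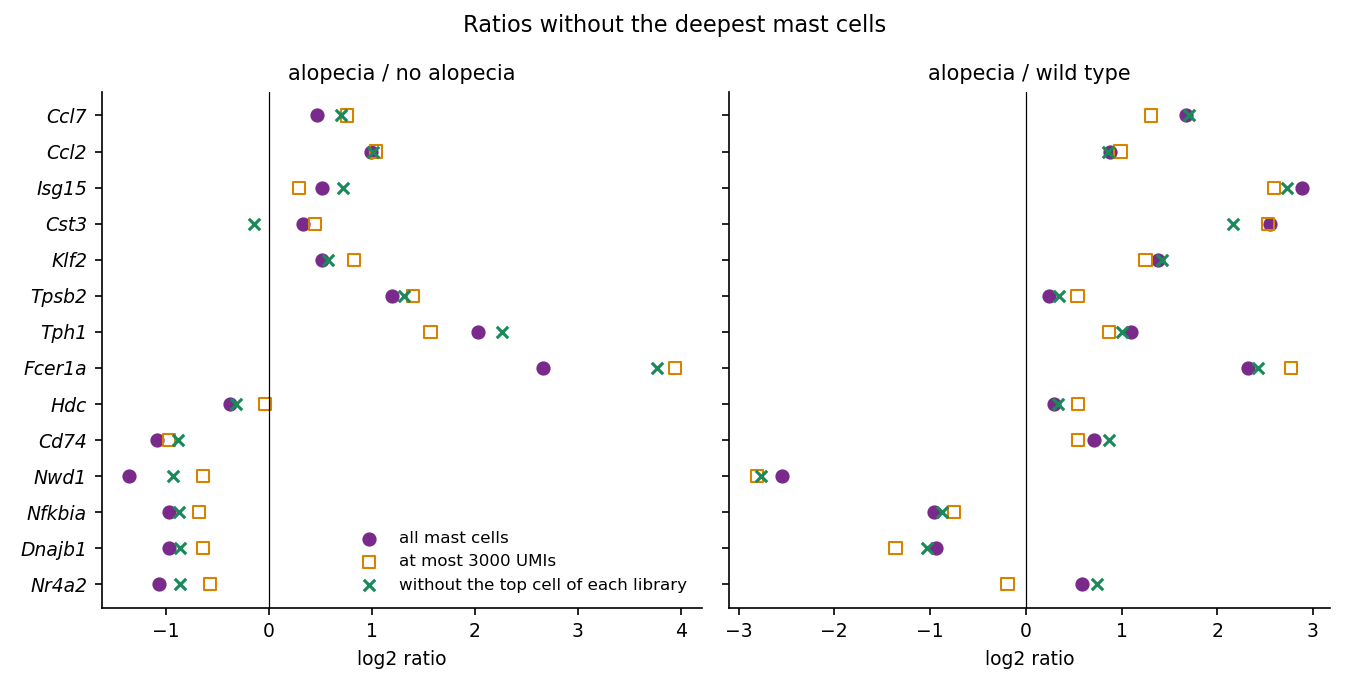
Log2 ratios (horizontal axes) of 14 genes for alopecia over no alopecia and alopecia over wild type, over all mast cells (filled circles), over mast cells with at most 3000 UMIs (open squares) and without the top cell of each library (crosses). The Isg15 ratio over wild type runs from 2.59 to 2.89, while that of Nr4a2 crosses 0.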

How the data were processed

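The deposited matrices hold raw UMI counts per gene and barcode. The authors made them with Cell Ranger 7.1.0 and build mm10, per the file headers and processing notes of the submitters, and they cover only barcodes called as cells. The annotation release is not given in the sources used here. Among 32285 gene identifiers 99.6% matched GENCODE vM21. The mast cells and gene lists were chosen with earlier results of these data known.

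Counts were added over the mast cells of a library and scaled to CPM. Intervals at 95% are exact conditional for ratios, Clopper-Pearson for shares and Poisson for levels. Where a library had 0 counts, 3 were put in. No p-value was computed. Ratios needed 20 UMIs over both libraries. Beyond the lists, genes were named by the interval bound nearest to 1 (10 each way for alopecia over no alopecia, 6 each way against wild type), given 50 UMIs, 50 CPM and 20% of the level in other kept cells. Mitochondrial, ribosomal, hemoglobin, antigen receptor, sex-linked and unnamed genes were passed over. List members named had the most UMIs (4 per list) or an interval that excludes 1 past 1.5-fold. Some genes that these rules pick are not reported here. No doublets were removed, since simulated doublet scores with their automatic threshold marked only 0, 4 and 0 barcodes. Removal at 0.4% per 1000 barcodes was an alternative, beside other limits on cells, scalings and count minima. Scripts were tested on simulated data. Python 3.11.15, numpy 2.4.6, scipy 1.17.1, pandas 2.3.3, scanpy 1.11.5 and matplotlib 3.10.9 were used.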

Additional observations from a re-analysis of the deposited data

How the results depend on the processing

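No paired analysis was possible because each group has 1 CD45-positive library and nothing pairs the libraries. Over 15 alternatives, 66 of 90 gene counts stayed within 1.5-fold of their main value. Share ratios had their own set of alternatives, and 30 of 33 stayed inside the interval of the main ratio. For lists, 1011 of 1041 medians stayed between the medians of the interval bounds of their genes. Of 5988 values for single named genes, 5633 stayed inside the main interval, 332 moved out of it and 23 turned direction. The share ratio of alopecia moved to 1.78 (over no alopecia) and 2.15 (over wild type) with at least 5% protease UMIs, and to 0.878 over wild type when cells were thinned to 1000 UMIs. Genes past 1.5-fold are given as higher and lower in alopecia over no alopecia, no alopecia over wild type and alopecia over wild type. They numbered 159, 90, 58, 83, 186 and 123 with at least 5% protease UMIs, 106, 80, 70, 97, 113 and 115 with at least 50 UMIs, and 1633, 4684, 4569, 2666, 3061 and 3525 without a limit on low counts. Without the Cd3 and C1q limits the counts that moved were 640 higher in alopecia over no alopecia, 435 higher and 660 lower in no alopecia over wild type, and 697 lower in alopecia over wild type. With cells of at most 3000 UMIs, chosen after seeing the data, 146 and 183 genes were higher and lower in no alopecia over wild type. Without a limit on low counts the higher genes were 25.9% of the calls in place of 56.0% in alopecia over no alopecia and 63.2% in place of 40.3% in no alopecia over wild type. With at least 5% protease UMIs they were 60.2% in place of 49.6% in alopecia over wild type. No scaling moved the median of all genes by more than 0.07.

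Directions turned as follows, as log2 ratios. With at least 5% protease UMIs, alopecia over no alopecia was 0.12 for Cd74, 1.83 for Cdk8, 0.95 for Nr4a2 and 0.76 for Csf1. No alopecia over wild type was -0.27 for Zfp36, and alopecia over wild type was -0.01 for Ucp2, 0.08 for Gas5 and 0.29 for Ly6e. With at least 2%, Cdk8 was 0.20 in alopecia over no alopecia, and Ccl5 was -2.18 and the chemokine median -0.16 in no alopecia over wild type. In cells with at most 3000 UMIs, Ccl5 was -0.68 and the chemokine median -0.06 in no alopecia over wild type, and Nr4a2 was -0.19 in alopecia over wild type. Without the top cell, Ccl5 was -0.20 in no alopecia over wild type. With 0.5% protease UMIs Ccl5 was 0.02 in alopecia over wild type. Without Cd3 and C1q limits it was 0.31, Cd74 and H2-Aa were 0.18 and 0.24 in alopecia over no alopecia, and AY036118 and Lyz2 were -0.01 and -0.71 in no alopecia over wild type. With 0 Cd3 and C1q UMIs, Lyz2 was -0.35 in no alopecia over wild type and H2-Ab1 -0.07 in alopecia over wild type. As a mean over cells, Lyz2 was -0.08 in alopecia over no alopecia and Nr4a2 -0.12 in alopecia over wild type. Without a limit on low counts, the chemokine and type I interferon medians were -0.05 and -0.35 in alopecia over wild type. The cause of these turns was not tested. Leaving out a replicate was not possible with 1 library per group.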

Other observations

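Beside the lists counted above, 12 further lists were measured. They are not separate from the lists above, since Kit, Gata2, Mitf, Mrgprb1, Mrgprb2 and Hpgds, for example, also belong to the identity list. Together the 12 lists held 68 genes in alopecia over no alopecia, of which 15 were higher and 10 lower (18.2% and 14.3% of all genes). List medians there ran from -0.05 for heparin and proteoglycan genes (7 measured) to 0.69 for eicosanoid genes (3 measured, each with an interval that included 1). In no alopecia over wild type 5 of 68 were higher and 16 lower (13.0% and 19.2% of all genes). Medians ran from -0.57 for cell cycle genes (4 measured) to 0.39 for heparin and proteoglycan genes (7 measured). In alopecia over wild type 8 of 81 were higher and 15 lower (15.1% and 15.4% of all genes). Here medians ran from -0.54 for cell cycle genes (4 measured) to 0.53 for eicosanoid genes (3 measured). Srgn, the core protein that carries heparin in the granule, was at 2650, 2362 and 2904 CPM in wild type, no alopecia and alopecia. Ext1, which builds the heparan sulfate chain, was at 1036, 1345 and 1354 CPM, and Ndst2, which starts the sulfation of heparin in mast cells, at 256, 148 and 227 CPM. Hs3st1, which adds the last sulfate group to antithrombin-binding sites, had 7, 21 and 14 UMIs, with no alopecia 4.72 times wild type (1.93 to 13.2) and alopecia 3 times below no alopecia (1.46 to 6.39).

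Hpgds, which makes prostaglandin D2, was at 202, 180.1 and 291 CPM, with intervals that included 1. Alox5ap, the protein that helps 5-lipoxygenase make leukotrienes, had 13, 9 and 33 UMIs, and alopecia was 2 times wild type (1.02 to 4.13). Lilrb4a, an inhibitory receptor that restrains mast cell activation, was at 726, 996 and 529 CPM, with alopecia 1.88 times below no alopecia (1.4 to 2.52). Icam1, an adhesion molecule, had 19, 12 and 5 UMIs, with alopecia 4.83 times below wild type (1.75 to 16.6), and 10 of its 12 no-alopecia UMIs lay in 1 cell. The adenosine receptor Adora3 was at 209, 297 and 280.4 CPM. Hspa5, the chaperone BiP of the endoplasmic reticulum, was highest in wild type at 774, 519 and 529 CPM.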
